A study of Homo sapiens with 66 samples.

Results

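Halofuginone (HFG) was compared with vehicle in carfilzomib (CFZ)-resistant L363 cells after 24 h, using the 3 libraries titled CFZ-13-t24 and the 3 titled CFZ-DMSO-t24. These are 6 of the 66 libraries of the series, and 10469 of the 20167 genes in the count table passed a filter on low counts and were tested. Genes were not preselected. The study measured polyadenylated RNA in human multiple myeloma lines after inhibitors of prolyl-tRNA synthetase (ProRS), and the question of this comparison is what HFG does to RNA levels in cells that had become resistant to the proteasome inhibitor CFZ. L363 is a plasma cell leukaemia line, and its CFZ-resistant subline is written L363-CFZr here. The treated cells received 1 µM HFG, the controls received DMSO, and both were harvested at 24 h. Libraries of the same cells and time with 1 µM halofuginol and with 1 µM NCP26 served for comparison. A further 3 libraries, with 1 µM NCP22, entered only the scaling of levels, the check of libraries and the fits of all 5 groups. All groups, controls included, carry the resistance to CFZ, no parental L363 library was used, and the labels do not say whether the 3 replicates of a group were separate cultures. The p-values therefore measure the spread between these libraries, which may be technical.

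ProRS charges tRNA with proline and is a part of the bifunctional enzyme encoded by EPRS1. HFG is a derivative of the plant alkaloid febrifugine that occupies the proline pocket of the enzyme. Uncharged tRNA activates the kinase GCN2, which phosphorylates eIF2α, lowers general translation and favours translation of the transcription factor ATF4. ATF4 then drives genes of amino acid synthesis, amino acid uptake and tRNA charging, a programme known as the integrated stress response (ISR).

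The libraries held 2487872 to 4084252 gene counts each. DMSO replicate 2 stood apart from the other 2 DMSO libraries: 13.2% of 10866 genes differed over 2-fold from their mean, against 0.883% to 2.31% in the other 14 L363-CFZr libraries of 24 h. Its correlation with them on the log2 scale was 0.9154 and 0.9185, while DMSO replicates 1 and 3 correlated at 0.9855, and its deviation from the group moved with transcript length (r = 0.278 across genes). Fold changes are therefore given with all 6 libraries and, where a second value follows, without DMSO replicate 2. The fit without it keeps only 2 controls, which resemble each other. DMSO replicate 2 was singled out by its values in these same data, so the p-values of that fit may be too small. All 10 plasma cell markers were present, with a summed level of 5580 CPM (gene counts scaled to the library size) in DMSO replicate 2, 8880 and 8160 CPM in the other DMSO libraries and 7100 to 7630 CPM with HFG. Every T cell, myeloid and erythroid marker in the table stayed under 1 CPM in all 6 libraries, as did 4 of 5 stromal and 4 of 5 epithelial markers. Of the 6 mature B cell markers 3 stayed under 1 CPM, and their sum was 61.0 CPM in DMSO replicate 2, 19.8 and 23.3 CPM in the other DMSO libraries and 34.6 to 38.2 CPM with HFG.

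With all 6 libraries, 122 genes differed between HFG and DMSO at an adjusted p under 0.05 in edgeR's quasi-likelihood test, which is 1.17% of those tested. Of these, 62 were higher with HFG (0.592%) and 60 lower (0.573%), and 86 changed by 2-fold or more. Without DMSO replicate 2, 2062 of 10559 genes were called (19.5%), 986 higher (9.34%) and 1076 lower (10.2%), of which 212 changed by 2-fold or more. All 122 genes were among the 2062, in the same direction. The counts of called list members below are to be read beside these shares of all genes. The biological coefficient of variation was 19.3% with all 6 libraries and 4.98% when DMSO replicate 2 was left out. Leaving out one of the others instead gave 23 called genes without DMSO replicate 1, 22 without DMSO replicate 3, 9 without HFG replicate 1, 11 without HFG replicate 2 and 9 without HFG replicate 3. Among the 122 called genes the log2 fold change ran from -2.68 (AKAP12) to 3.55 (CHAC1), and the gene with the lowest value of all, HGH1 at -4.13, did not pass the test.

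**Figure D1:**
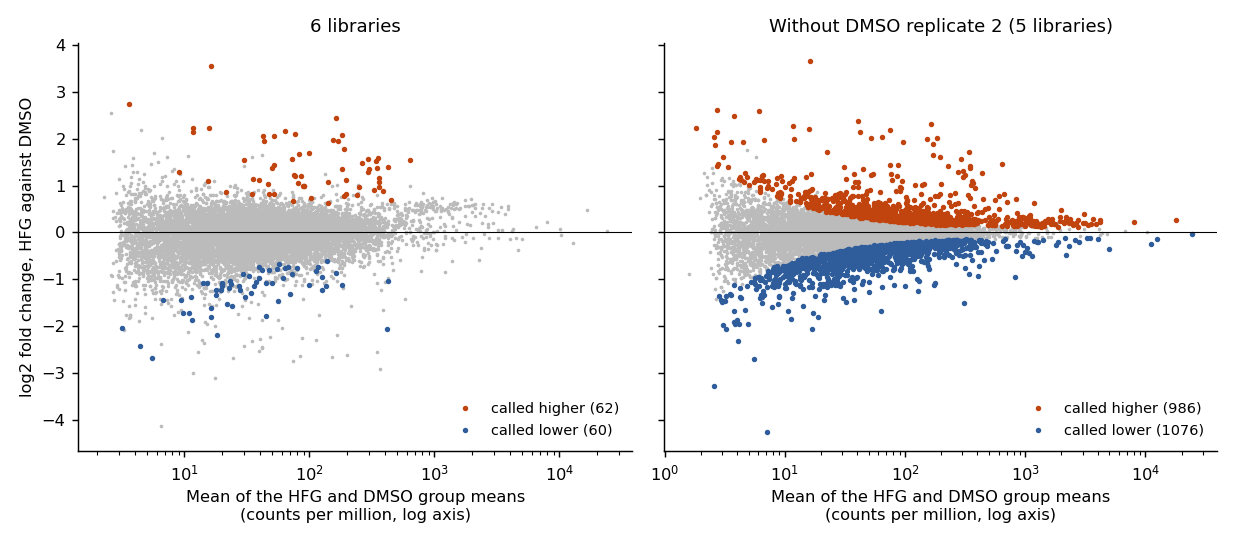
Fold change of HFG against DMSO (log2, vertical) against the mean of both group means in CPM (log axis, horizontal), 1 point per tested gene, with all 6 libraries (left) and without DMSO replicate 2 (right). Coloured points passed an adjusted p of 0.05, 122 on the left and 2062 on the right. The point highest on both sides is CHAC1, at 3.55 and 3.65.

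The regulators and effectors of the ISR were the first group examined. Of 22 listed genes 19 were tested; 7 rose and none fell with all 6 libraries, and 15 rose and none fell without DMSO replicate 2. The median log2 fold change of the tested members was 0.99 and 0.83 in these fits, beside -0.02 and -0.00128 over all genes. CHAC1, a glutathione-degrading enzyme and a canonical ATF4 target (GRCh38, chr15:40952962-40956512, plus strand), was at 2.72, 3 and 1.96 CPM in the DMSO libraries and at 28.1, 32.9 and 28.5 CPM with HFG. Every HFG library was far above every DMSO library, DMSO replicate 2 included. Its log2 fold change was 3.55 ± 0.21 (SE; adjusted p = 0.00106) and 3.65 ± 0.25 without DMSO replicate 2 (adjusted p = 5.41e-11). TRIB3, a pseudokinase that feeds back on the ATF4 pathway, was at 77.0, 62.2 and 68.1 CPM with DMSO and at 258, 269.7 and 277 CPM with HFG, a log2 fold change of 1.95 ± 0.12 (adjusted p = 0.00106). SESN2, an inhibitor of mTORC1 that senses leucine, went from 28.1, 33.3 and 25.7 CPM to 116, 129 and 125 CPM, a log2 fold change of 2.09 ± 0.14 (adjusted p = 0.00114). The activin subunit gene INHBE was at 23.9, 18.7 and 17.1 CPM in controls and 80.8 to 86.3 CPM with HFG. In none of these did a control library reach the treated ones.

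The RNAs of the transcription factors themselves had smaller fold changes than CHAC1. ATF4 RNA (GRCh38, chr22:39519695-39522683, plus strand) was at 502, 314 and 466 CPM with DMSO and at 862, 858 and 843 CPM with HFG. The groups did not overlap, but the low value of DMSO replicate 2 widened the spread: the log2 fold change was 0.99 ± 0.19 with an adjusted p of 0.0557, and 0.82 ± 0.05 without that library (adjusted p = 9.31e-12). DDIT3, which encodes the pro-apoptotic factor CHOP, was at 21, 8.61 and 19.1 CPM and then 42, 46 and 44.8 CPM (log2 fold change 1.41 ± 0.28, adjusted p = 0.0664, and 1.14 ± 0.13 without DMSO replicate 2, adjusted p = 6.95e-07). DDIT3 overlaps the 3′ end of MARS1 on the opposite strand, and 28.9% of its 31-base words also occur in transcripts of other genes. CEBPB and CEBPG, which form dimers with ATF4, passed the test with all 6 libraries at log2 fold changes of 1.55 and 1.23. ATF3 ranged from 4.12 to 7.10 CPM with DMSO and from 8.96 to 16.2 CPM with HFG, and passed only without DMSO replicate 2 (adjusted p = 0.121 and 0.00576). DDIT4, an ISR-inducible inhibitor of mTORC1, was at 932, 583 and 968 CPM with DMSO and 949.8, 949 and 912 CPM with HFG, within the control range (log2 fold change -0.02 ± 0.04 without DMSO replicate 2, adjusted p = 0.791). EIF2AK4, which encodes GCN2, differed by less than the spread of either group (adjusted p = 0.996 and 0.747).

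**Figure D2:**
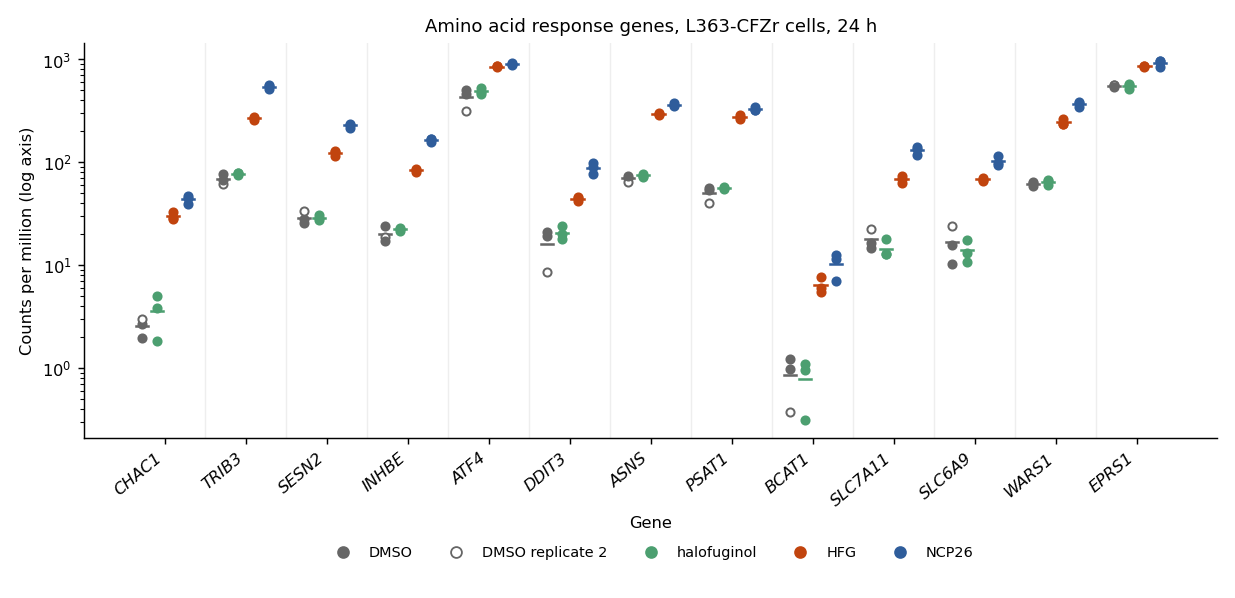
Level of 13 genes in each library (CPM, log axis), with 3 points per group for DMSO, halofuginol, HFG and NCP26 and a bar at each group mean; the open grey point is DMSO replicate 2. In all 13 genes every HFG library lies above every DMSO and halofuginol library. BCAT1 and SLC6A9 were named for being called against DMSO, so their separation from DMSO was largely set by that choice. The others belong to a fixed set of genes, of which some, such as DDIT4 with overlapping groups, are not drawn. The separation of all 13 therefore partly follows from that choice. The share of all tested genes that separate in this way was not counted.

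Genes that make amino acids were called most often of the lists examined. A list of 16 enzymes of asparagine, serine and one-carbon metabolism also held enzymes of other amino acids, such as ASS1, CTH and BCAT1. Of the 16, 13 rose and none fell with all 6 libraries, with a median log2 fold change of 1.32. Without DMSO replicate 2, 14 rose and 2 fell. ASNS, asparagine synthetase (GRCh38, chr7:97851677-97872542, minus strand), was at 71.1, 64.0 and 74.5 CPM with DMSO and 291, 293 and 299.9 CPM with HFG. Its log2 fold change was 2.07 ± 0.11 (adjusted p = 0.00106), and it remained called whichever library was left out, as did CHAC1, PSAT1, ASS1, INHBE, SESN2, TRIB3 and WARS1. The treated libraries agreed closely, with an SD of 4.93 CPM, although 48.6% of its 31-base words occur in transcripts of other genes. PSAT1 and PHGDH, which catalyse steps of serine synthesis from a glycolytic intermediate, had log2 fold changes of 2.45 and 1.77, and PSPH, which completes that route, of 1.38. In mitochondrial folate metabolism SHMT2, MTHFD2, ALDH1L2 and MTHFD1L rose by 1.17, 1.30, 1.35 and 0.81 on the log2 scale. Their cytosolic counterparts SHMT1 and MTHFD1 had negative values, and fell by 0.48 and 0.40 without DMSO replicate 2.

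CTH, which makes cysteine from cystathionine, went from 4.69, 4.49 and 3.18 CPM to 20.5, 21.1 and 16.3 CPM. ASS1, the argininosuccinate synthetase of arginine synthesis, went from 23.2, 17.6 and 27.7 CPM to 100.3, 102 and 109.5 CPM. BCAT1, a branched-chain aminotransferase, was at 1.23, 0.374 and 0.980 CPM with DMSO and at 5.96, 5.54 and 7.63 CPM with HFG. All 3 passed with all 6 libraries (adjusted p = 0.00909 for CTH, 0.00258 for ASS1 and 0.0215 for BCAT1) and are among the 13 counted above. The log2 fold change of BCAT1, 2.74 ± 0.38, rests on few counts in the controls.

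Proline is the amino acid of the inhibited enzyme. Of 9 tested genes on a list of proline synthesis and prolyl-tRNA charging none passed with all 6 libraries, and 3 rose and 1 fell without DMSO replicate 2. The list also held ALDH4A1, of proline breakdown (log2 fold change -0.22 with all 6 libraries). EPRS1, which encodes the HFG target (GRCh38, chr1:219968600-220046530, minus strand), was at 561, 560.2 and 543 CPM with DMSO and at 870.4, 843 and 867 CPM with HFG. Treated and control libraries were well apart, and the log2 fold change was 0.63 ± 0.11 (95% interval 0.36 to 0.89; adjusted p = 0.052) and 0.64 ± 0.05 without DMSO replicate 2 (adjusted p = 4.11e-10). PYCR1, the last enzyme of proline synthesis in mitochondria, was at 133, 116 and 120.5 CPM and then 165, 176 and 169.9 CPM (adjusted p = 0.106 and 3.39e-05). ALDH18A1, which commits glutamate to proline, was at 105, 98.1 and 102 CPM with DMSO and 102, 105 and 112 CPM with HFG (log2 fold change 0.06 ± 0.10, adjusted p = 0.771). PARS2, the mitochondrial prolyl-tRNA synthetase, had 7.86 to 8.33 CPM in controls and 9.35 to 12.9 CPM with HFG, and passed in neither fit.

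Transporters and tRNA synthetases followed. Of 15 tested amino acid transporters 4 rose and none fell, and without DMSO replicate 2, 10 rose and 3 fell. SLC7A11 imports cystine, SLC6A9 imports glycine, SLC1A5 carries neutral amino acids and SLC3A2 is the heavy chain shared by several exchangers; these were the 4. SLC7A11 was at 14.6, 22.5 and 16.4 CPM with DMSO and 73.1, 62.7 and 69.7 CPM with HFG, a log2 fold change of 1.95 ± 0.18 (adjusted p = 0.00583). SLC7A5, the leucine carrier, had 131 and 117 CPM in DMSO replicates 1 and 3 but 242 CPM in replicate 2, against 325 to 335 CPM with HFG, and its adjusted p was 0.133 with and 6.02e-15 without replicate 2. SLC38A5, SLC6A6 and SLC7A6 were the 3 that fell, by 0.65, 0.48 and 0.31 on the log2 scale.

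Of the 20 cytosolic aminoacyl-tRNA synthetases, 8 rose and none fell with all 6 libraries, and 13 rose and none fell without DMSO replicate 2 (median log2 fold changes 0.64 and 0.63). WARS1, for tryptophan, went from 59.0, 64.0 and 63.2 CPM to 235, 263 and 238 CPM (log2 fold change 1.98 ± 0.12, adjusted p = 0.00106). GARS1, for glycine, was at 349.6, 282 and 334 CPM with DMSO and 934, 945 and 964 CPM with HFG. AARS1 and MARS1, for alanine and methionine, had log2 fold changes of 0.96 and 0.79. The list was not uniform: QARS1, FARSA, VARS1, FARSB, HARS1, KARS1 and RARS1 lay between -0.08 and 0.16 without DMSO replicate 2 and passed in neither fit. Of 17 mitochondrial synthetases none passed with all 6 libraries and 1, EARS2, fell without DMSO replicate 2, with a median of 0.07.

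**Figure D3:**
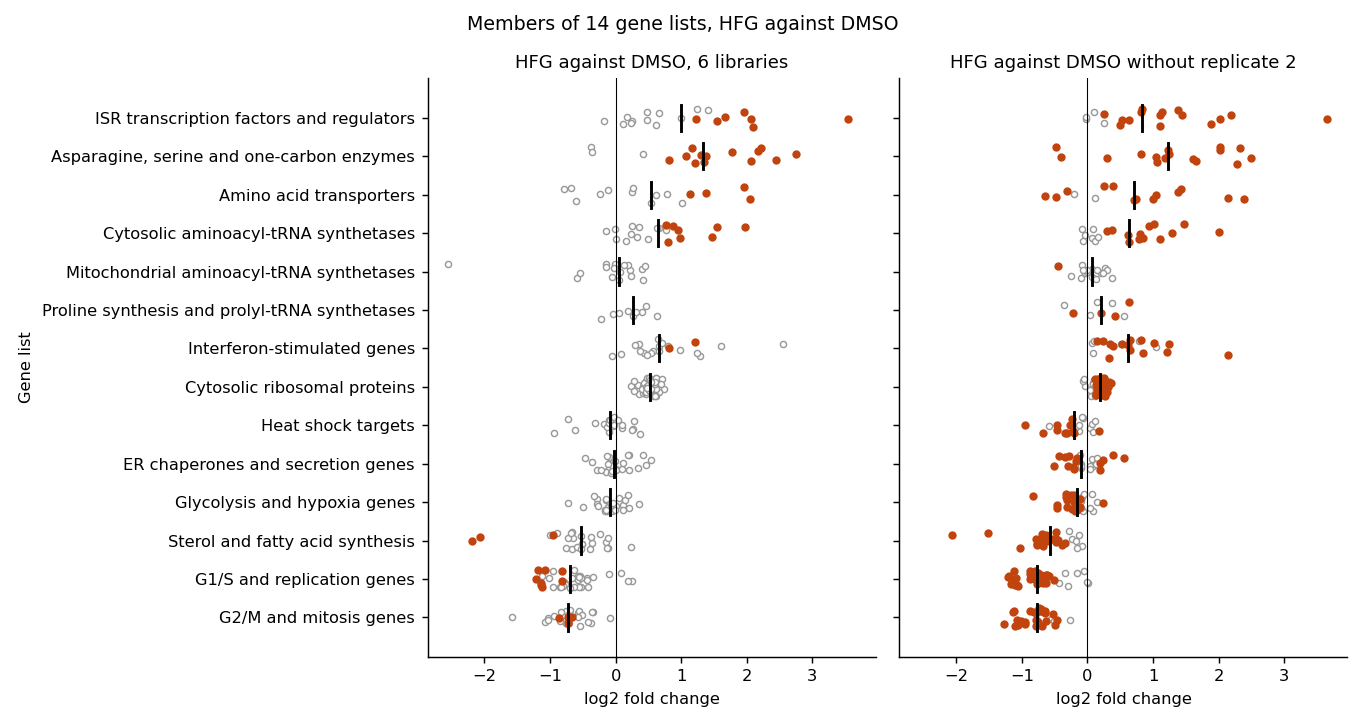
Log2 fold change of HFG against DMSO for the tested members of 14 gene lists, with all 6 libraries (left) and without DMSO replicate 2 (right); filled points passed an adjusted p of 0.05 and black bars are list medians. Medians run from 1.32 for enzymes of asparagine, serine, one-carbon and other amino acid metabolism to -0.73 for mitotic genes on the left.

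The ISR acts on many of its targets through a composite C/EBP-ATF response element, TGATGNAAN, where N is any base. The 250 bases before the annotated start of each gene were searched on both strands in the RefSeq promoter table (GRCh38.p14), which held 44 of the 62 genes that rose with all 6 libraries. The element occurred in 6 of these 44 (13.6%), in 0 of the 45 matched genes that fell, in 1.16% of the 8517 matched genes tested and in 3.18% of all 27305 promoters on the main chromosomes. Without DMSO replicate 2 the shares were 21 of 782 matched genes that rose (2.69%) and 7 of 860 that fell (0.814%). The share of 2.69% lies over the 1.16% of matched genes tested with 6 libraries and under the 3.18% of all promoters. No test was made of these shares, and a match is not shown to be a bound site. A match also lay before ATF3, which did not pass with all 6 libraries. Each of the 6, selected as genes that rose, is printed below on the strand of its gene with the matched bases in capitals. In AARS1, CHAC1 and IARS1 the element lies on the opposite strand.
CHAC1 (chr15): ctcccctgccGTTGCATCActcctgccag
ASNS (chr7): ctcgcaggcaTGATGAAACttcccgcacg
BCAT1 (chr12): gtcttcctgcTGATGCAATccgctaggtc
AARS1 (chr16): ttttctcgcaGTTGCATCAgccaagttag
MTHFD1L (chr6): ccgccggctcTGATGCAATcgcgccgggc
IARS1 (chr9): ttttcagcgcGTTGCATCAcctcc

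In GRCh38.p14 coordinates these windows are chr15:40953251-40953279 (plus strand) for CHAC1, chr7:97872458-97872486 (minus) for ASNS, chr12:24949131-24949159 (minus) for BCAT1, chr16:70289676-70289704 (minus) for AARS1, chr6:150866347-150866375 (plus) for MTHFD1L and chr9:92293698-92293721 (minus) for IARS1. All lie in the 250 bases upstream of the RefSeq start, which need not be the start in other annotations.

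Among the other genes with the largest rises were SNTB1, a syntrophin that links membrane proteins to dystrophin, and MKX, a homeobox factor of tendon. SNTB1 went from 5.24 to 5.92 CPM in controls to 33.4, 20.1 and 24.9 CPM with HFG, and MKX from 3 to 5.39 CPM to 15.6 to 21.5 CPM. Their log2 fold changes were 2.23 ± 0.24 and 2.15 ± 0.26 (adjusted p = 0.00993 and 0.0139). CTNNA3, an α-catenin, was at 1.73, 4.87 and 1.72 CPM with DMSO and 10.6, 11.8 and 9.29 CPM with HFG. Its call depended on DMSO replicate 2, with an adjusted p of 0.0664 with and 7.13e-06 without it. FTH1, the ferritin heavy chain, rose from 184, 149.8 and 198 CPM to 494, 507 and 527 CPM, though 63.6% of its 31-base words occur in other genes, so reads of near copies could be counted there. HMOX1, haem oxygenase, is listed with FTH1 among NRF2 targets and moved the other way, from 93.8, 55.4 and 98.0 CPM to 32.1, 29.8 and 28.2 CPM (log2 fold change -1.47 ± 0.22, adjusted p = 0.0323).

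Of 21 tested interferon-stimulated genes, 2 rose with all 6 libraries, MX1 among them, and the median was 0.66. Without DMSO replicate 2, 15 rose and none fell. MX1, an antiviral GTPase, was at 49.6, 50.9 and 53.4 CPM with DMSO and 112, 132 and 114 CPM with HFG (log2 fold change 1.21 ± 0.12, adjusted p = 0.00747). ISG15, a ubiquitin-like modifier, was at 23.9, 6.37 and 20.6 CPM with DMSO and 49.3, 58.5 and 51.4 CPM with HFG, and it passed only without DMSO replicate 2.

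Genes of cell division were lower. In bulk RNA, fewer cells that express a gene and less RNA per cell cannot be told apart. Of 37 tested genes of the G1/S transition and DNA replication, none rose and 8 fell with all 6 libraries, and 29 fell without DMSO replicate 2, with medians of -0.69 and -0.76. Of 30 mitotic genes 4 and 27 fell and none rose, with medians of -0.73 and -0.77. MCM2, a subunit of the replicative helicase (GRCh38, chr3:127598410-127622436, plus strand), was at 67.7, 69.7 and 66.6 CPM with DMSO and 29.1, 33.2 and 34.8 CPM with HFG. Here DMSO replicate 2 lay with the other controls, and the log2 fold change was -1.07 ± 0.12 (adjusted p = 0.0108). CDC6, which loads that helicase, fell from 44.6 to 52.7 CPM to 19 to 25.6 CPM, and RRM2, a subunit of ribonucleotide reductase, from 122, 127 and 156 CPM to 67.5, 58.5 and 61.0 CPM. TOP2A, BUB1, TPX2 and KIF11, which act in chromosome separation and the spindle, had log2 fold changes of -0.86, -0.73, -0.73 and -0.67. For KIF11 the adjusted p was 0.0492, close to the limit of 0.05. MKI67, the proliferation marker, was at 231, 502 and 242 CPM with DMSO and 111, 116 and 100.2 CPM with HFG, so that its adjusted p was 0.0639 with all libraries and 3.45e-12 without DMSO replicate 2. CLSPN, ESCO2 and WDR62, of the replication checkpoint, sister chromatid cohesion and centrosomes, were among the 12 genes that fell most.

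Of 26 tested genes of sterol and fatty acid synthesis 3 fell and none rose with all 6 libraries, and 20 fell without DMSO replicate 2, with medians of -0.53 and -0.57. FASN, fatty acid synthase, was at 477, 1093 and 438 CPM and then 172, 156 and 153 CPM; the fold change shrank from -2.07 ± 0.35 to -1.51 ± 0.06 without DMSO replicate 2. INSIG1, which holds the sterol sensor in the endoplasmic reticulum, fell from 146 to 179 CPM to 79.1 to 89.6 CPM.

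**Figure D4:**
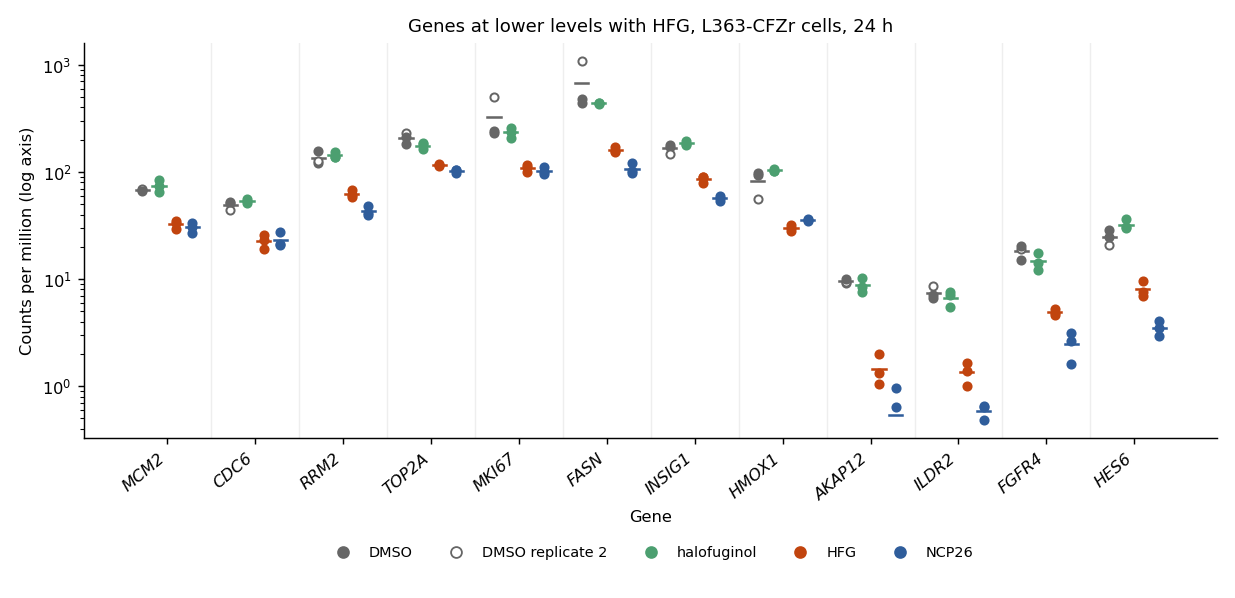
Level of 12 genes that were lower with HFG, in each library (CPM, log axis), with 3 points per group, a bar at each group mean and DMSO replicate 2 as the open grey point; a value of 0 (AKAP12, 1 NCP26 library) is not drawn. In all 12 genes the HFG libraries lie below the DMSO and halofuginol libraries. All but MKI67 were named for being called against DMSO in these libraries, so their separation from DMSO was largely set by that choice. The share of all tested genes that separate in this way was not counted.

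Other genes with large falls belonged to none of these lists. AKAP12, a scaffold for protein kinase A, went from 9.13, 9.36 and 10 CPM to 1.32, 1.04 and 1.99 CPM, and ILDR2 from 6.67, 8.61 and 7.10 CPM to 1.66, 1.39 and 0.995 CPM. Their log2 fold changes were -2.68 ± 0.29 (adjusted p = 0.0101) and -2.43 ± 0.31 (adjusted p = 0.0169), and both values rest on few counts with HFG. FGFR4, a receptor for fibroblast growth factors, went from 15.1, 19.1 and 20.3 CPM to 5.29, 4.85 and 4.64 CPM, HES6, a transcription factor of the Notch-related HES family, from 20.6 to 28.4 CPM to 6.92 to 9.62 CPM, and the metalloprotease ADAM19 from 51.2 to 99.2 CPM to 17.9 to 23.9 CPM. HGH1 was at 7.16, 9.74 and 19.8 CPM with DMSO and at 0, 0 and 1.99 CPM with HFG. It did not pass with all 6 libraries (adjusted p = 0.0793) and passed without DMSO replicate 2 (adjusted p = 1.4e-05). Its log2 fold change rests on few counts with HFG and ran from -8.37 to -3.56 over the alternative fits.

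Of 22 tested plasma cell and myeloma genes 1 fell with all 6 libraries, the kinase PIM1, from 46.4, 50.9 and 50.0 CPM to 28.1, 29.4 and 30.9 CPM (log2 fold change -0.74 ± 0.12, adjusted p = 0.0432). Without DMSO replicate 2, 5 of the 22 rose and 7 fell. IRF4, a transcription factor on which myeloma cells depend, was at 447, 575 and 411 CPM with DMSO and 676, 696 and 699 CPM with HFG, and passed only without DMSO replicate 2 (adjusted p = 0.173 and 5.83e-10). SDC1, TNFRSF17 and POU2AF1 had log2 fold changes of 0.09, 0.06 and 0.05 without DMSO replicate 2 and passed in neither fit. XBP1 was at 540 to 841 CPM with DMSO and 612 to 682 CPM with HFG. MZB1 was at 309 to 681 CPM with DMSO and 476 to 506 CPM with HFG. In both genes DMSO replicate 2 was the lowest control. MYC was at 334, 327 and 328 CPM with DMSO and at 394, 384 and 404 CPM with HFG, a log2 fold change of 0.25 (adjusted p = 0.294 and 0.00125). The 17 tested BCL2 family and death receptor genes held no call with all 6 libraries, and 5 rose without DMSO replicate 2, among them PMAIP1, TNFRSF10B and MCL1 at 0.97, 0.55 and 0.28. Of 16 genes tested on a p53 target list, which held neither PMAIP1 nor TNFRSF10B, none passed with all 6 libraries. Without DMSO replicate 2 none of the 16 rose and 1 fell, beside 9.34% and 10.2% of all genes.

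Protein-folding genes had no call with all 6 libraries. Of 21 heat shock targets none passed with all 6 libraries, and 1 rose and 10 fell without DMSO replicate 2, with a median of -0.21. Of 24 genes of endoplasmic reticulum folding and secretion none passed with all 6 libraries, and 5 rose and 9 fell without DMSO replicate 2. HSPA5, the chaperone BiP, was at 1030.0, 816 and 1078 CPM with DMSO and at 951, 1004 and 993 CPM with HFG (adjusted p = 0.983 and 0.104). HSPA1A, an inducible chaperone, overlapped between groups, at 36, 35.6 and 44.6 CPM with DMSO and 35.1, 47.4 and 42.5 CPM with HFG (adjusted p = 0.764 and 0.866), and 76.0% of its 31-base words occur in other genes. Of 30 proteasome subunits, the target of CFZ, none passed with all 6 libraries and 7 rose by at most 0.35 on the log2 scale without DMSO replicate 2.

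Of the 17 NRF2 targets 2 rose and 1 fell with all 6 libraries, of 24 autophagy and mTORC1 genes 1 rose, and none of 16 eIF2 kinase and subunit genes, 8 histone genes, 15 NF-kB and immediate early genes or 26 glycolysis and hypoxia genes passed. The lists share genes. SLC7A11, an NRF2 target that rose, was also counted among the transporters, and SESN2, the autophagy and mTORC1 call, among the ISR genes. For the lists with no call in edgeR's test of all 6 libraries, the tested members at an unadjusted p under 0.05 were counted. Proline held 2 of 9, mitochondrial synthetases 1 of 17, the BCL2 family and death receptors 7 of 17 and p53 targets 2 of 16. Heat shock held 3 of 21, endoplasmic reticulum folding 4 of 24, the proteasome 1 of 30 and eIF2 4 of 16. Histones held 1 of 8, NF-kB and immediate early genes 4 of 15, glycolysis and hypoxia 3 of 26 and ribosomal proteins 0 of 79. Over all 10469 tested genes there were 1735 such p-values. Without DMSO replicate 2, the glycolysis and hypoxia genes held 1 rise and 15 falls (median -0.16), the autophagy and mTORC1 genes 7 rises, and the eIF2 genes 6 rises. In the same fit 7 NRF2 targets rose and 3 fell, 2 of 16 NF-kB and immediate early genes rose and 2 fell, and 1 of 9 histone genes rose. Of all genes tested in that fit 9.34% rose and 10.2% fell. The NF-kB, immediate early and histone counts lie near these shares.

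Cytosolic ribosomal protein genes showed how the control library shifts a list. All 79 had positive fold changes with all 6 libraries, between 0.24 and 0.74 with a median of 0.52, and none passed the test. Without DMSO replicate 2 the median was 0.19, 66 rose and none fell. The correlation of the fold change with log2 transcript length across genes was -0.17 with and -0.028 without that library, and with GC content -0.17 and -0.13. A GC and length offset was fitted for HFG against DMSO, but its values for this list are not reported here.

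HFG was next set against halofuginol, its derivative with a hydroxyl in place of a ketone group, at the same 1 µM and 24 h. This comparison and the next share the 3 HFG libraries with that against DMSO and use no DMSO library, and 2 pairs of compounds were compared. In another myeloma line, AMO1, the study found halofuginol to group with the solvent control and related this to weak or absent inhibition. Halofuginol was not compared with DMSO here. Between HFG and halofuginol 2280 of 10408 genes differed (21.9%), 998 higher with HFG (9.59%) and 1282 lower (12.3%), and 242 by 2-fold or more. The ISR list held 16 higher and 0 lower of 19 (median 0.91), the amino acid enzymes 14 higher and 2 lower of 16, the G1/S genes 32 lower of 37, the mitotic genes 28 lower of 30 and the sterol and fatty acid genes 23 lower of 26. Of 79 ribosomal protein genes 23 were higher with HFG and 2 lower, with a median of 0.08. CHAC1 was at 3.84, 4.99 and 1.85 CPM with halofuginol, a log2 difference of 3.01 ± 0.24 from HFG (adjusted p = 2.01e-07). CTH was at 1.28, 3.43 and 2.22 CPM with halofuginol, 3.03 ± 0.29 lower on the log2 scale than with HFG, and BCAT1 at 0.959, 0.312 and 1.11 CPM. EPRS1 was at 561, 577 and 514 CPM, a difference of 0.64 (95% interval 0.53 to 0.74). Of 22 plasma cell and myeloma genes 5 were higher with HFG and 7 lower. XBP1 and MZB1 were lower with HFG (differences -0.36 and -0.53, edgeR adjusted p = 5.52e-05 and 1.67e-06). MYC at 383, 410.4 and 390.1 CPM did not pass against HFG (difference -0.01, 95% interval -0.12 to 0.11). The correlation of these differences with GC content across genes was -0.20, and its part was not tested.

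**Figure D5:**
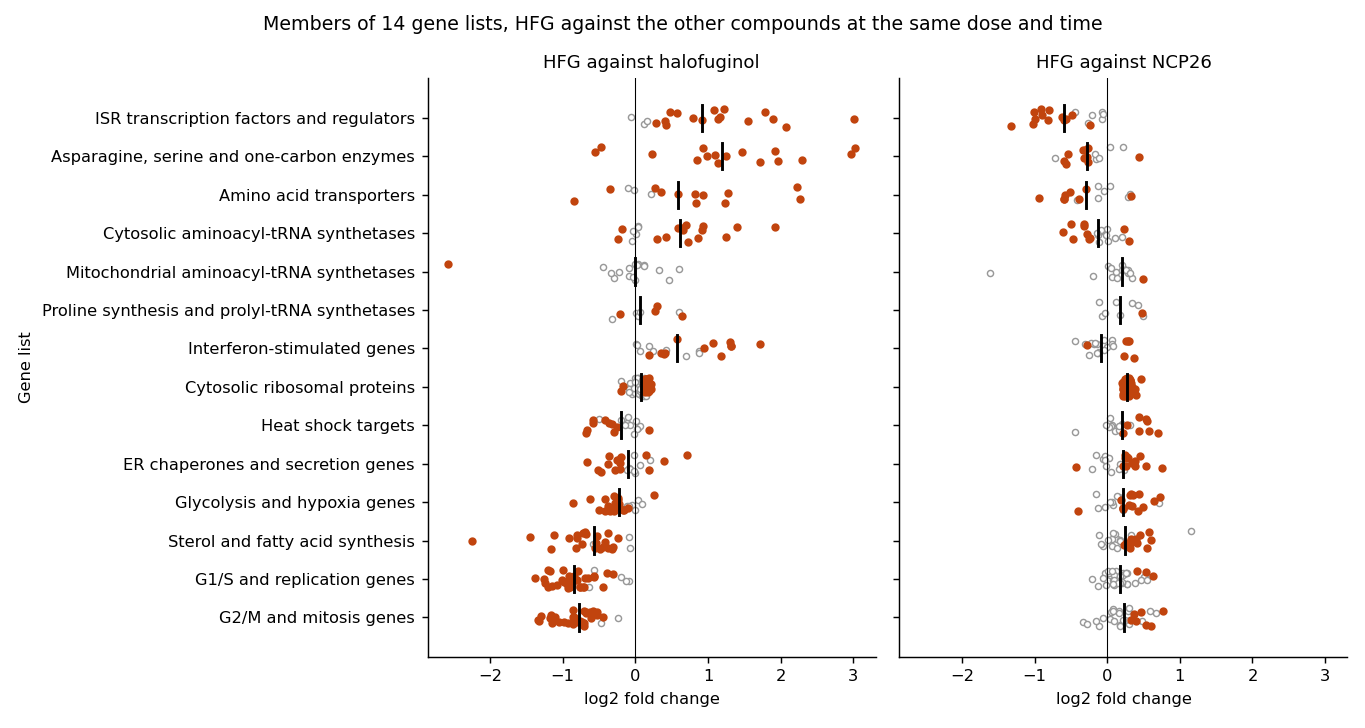
Log2 difference of HFG from halofuginol (left) and from NCP26 (right) for the tested members of the 14 lists; filled points passed an adjusted p of 0.05 and black bars are list medians. For ISR regulators the median is 0.91 on the left and -0.60 on the right.

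NCP26, described by the study as an inhibitor that binds the ATP pocket of ProRS, gave 1354 of 10462 genes that differed from HFG (12.9%), 777 higher with HFG (7.43%) and 577 lower (5.52%). Only 26 differed by 2-fold or more, compared with 242 against halofuginol. Without HFG replicate 1 the count was 874, without HFG replicate 2 it was 633, and without HFG replicate 3 it was 588. Of the 19 ISR genes 13 were lower with HFG and none higher, with a median of -0.60. TRIB3 was at 551, 559.9 and 521 CPM with NCP26, above the 258 to 277 CPM with HFG (log2 difference -1.03 ± 0.06, adjusted p = 8.93e-07). DDIT3 was at 90.9, 98.6 and 76.5 CPM, a difference of -1.01 ± 0.10, and ATF3 at 30, 35.8 and 30.9 CPM, a difference of -1.32 ± 0.18. ATF4 RNA did not pass, at 894, 916 and 879.5 CPM (difference -0.08, 95% interval -0.18 to 0.02).

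The amino acid enzymes were split in this comparison. ASS1, at 104, 99.3 and 98.8 CPM with NCP26, did not pass (difference 0.04, 95% interval -0.12 to 0.19), and neither did PHGDH (-0.15, interval -0.28 to -0.03, adjusted p = 0.112). ASNS and PSAT1 were lower with HFG by small amounts, -0.31 ± 0.06 and -0.26 ± 0.06. In all, 9 of the 16 enzymes were lower with HFG and 1 higher, as were 7 and 1 of 15 transporters and 8 and 2 of 20 cytosolic synthetases. TNFRSF10B, the death receptor DR5, was at 153, 147 and 146 CPM with NCP26 and 77.6 to 83.1 CPM with HFG (difference -0.91 ± 0.07, adjusted p = 5.52e-06). MYC was higher with HFG than with NCP26 (difference 0.41, 95% interval 0.28 to 0.55, edgeR adjusted p = 0.000935).

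The lists with lower genes against DMSO were compared in the same way. In sterol and fatty acid synthesis 11 of 26 genes were higher with HFG and none lower; FASN was at 122, 97.4 and 102 CPM with NCP26, a difference of 0.58 ± 0.09 (adjusted p = 0.00127), and INSIG1 at 59.0, 53.9 and 56.8 CPM, a difference of 0.60 ± 0.09. Among mitotic genes 7 of 30 were higher with HFG and none lower, and among G1/S genes 3 of 37 were higher, a share near the 7.43% of all tested genes. MCM2 did not pass (difference 0.08, 95% interval -0.19 to 0.36), nor did MKI67 (0.08, -0.10 to 0.27). GJA1, the gap junction protein connexin 43, was at 27.5, 24.2 and 29.5 CPM with HFG and 11.2, 10.3 and 12.2 CPM with NCP26 (difference 1.27 ± 0.15, adjusted p = 0.000217). HES6 and TRIB2 were also higher with HFG, by 1.16 each. HGH1 was far lower with HFG than with NCP26, at 13.1, 14.4 and 8.86 CPM with the latter (difference -4.12 ± 0.57, adjusted p = 0.000567), and TRPM8, a cold-sensing cation channel, was at 5.63 to 5.89 CPM with HFG and 14.1 to 16.6 CPM with NCP26. The size of the HGH1 difference rests on few counts with HFG.

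Of the 79 ribosomal protein genes 78 were higher with HFG than with NCP26 and none lower, but by small amounts, between 0.21 and 0.46 on the log2 scale. Glycolysis and hypoxia genes were higher in 14 of 26 and lower in 1, and endoplasmic reticulum genes higher in 12 of 24 and lower in 1. Across genes the difference between HFG and NCP26 correlated at -0.16 with log2 transcript length and at 0.074 with GC content, and the part of these in the ribosomal protein values was not tested.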

How the data were processed

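Poly(A) RNA libraries (NEBNext Ultra II directional kit, paired ends) were pseudoaligned by the authors with kallisto, and the deposited table holds whole-number counts per Ensembl gene. The study's methods and the submitters' processing notes name different genome builds (GRCh38 and hg19); which kallisto version and annotation were used, and how transcripts were summed, is not given in the sources used here. Coordinates are GENCODE GRCh38, matched by gene ID; 19299 of 20167 IDs (95.7%) had a symbol.

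Groups came from the sample titles. Genes were kept by filterByExpr (minimum count 10, minimum total 15) and tested with edgeR 4.0.16 quasi-likelihood (TMM scaling, R 4.3.3), 2 groups per fit, calling a Benjamini-Hochberg adjusted p under 0.05 over all tested genes. DESeq2 1.42.0 and limma 3.58.1 were alternatives. Levels are CPM with TMM factors over the 15 L363-CFZr libraries of 24 h. Counting error alone limits low levels at 2487872 to 4084252 counts per library. Sharing of 31-base words was checked for 165 genes; 6 shared over 50%. Named genes were a fixed set of ISR, myeloma and cell death genes, the called genes of largest fold change (12 each way with 6 libraries, 5 each way in the other fits; mean of at least 5 CPM in one group, no overlap) and up to 4 called members of each list with the smallest p. Other genes named to say which members of a list did or did not pass were chosen after their values were seen. The comparison, members and lists were chosen with earlier results of these data known. Scripts were tested on simulated data. Some called genes are not reported here.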

Additional observations from a re-analysis of the deposited data

How the results depend on the processing

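The count of 122 genes between HFG and DMSO was 319 with DESeq2's Wald test, 1695 with voom quality weights, 1121 with all 5 groups in one fit, 1346 with all 5 groups and no DMSO replicate 2, and 9 to 2062 when one library was left out. With choices made after seeing the data it was 204 with a GC and length offset, 2028 with that offset and 970 with DESeq2's Wald test, both without DMSO replicate 2. The 2280 genes against halofuginol became 1408 with DESeq2's Wald test and 867 with all 5 groups. The 1354 against NCP26 became 127 with all 5 groups and 588 to 1688 when one library was left out. The cause was not tested. All 52 named genes called with 6 libraries kept their direction under every alternative run, and 8 were called under all of them. Many were named for being called in these same libraries, which the alternatives reuse, so a kept direction is weak support.

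With the replicate number as a block, 20 genes were called between HFG and DMSO, 2455 against halofuginol and 1498 against NCP26. The deviations of same-numbered HFG and DMSO libraries from their group means correlated at -0.0787, -0.0642 and 0.0127. DMSO replicate 2 stood apart and shifts the mean of its group, so these values cannot decide whether the numbers pair the libraries. The pairing was not checked for halofuginol and NCP26.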

Other observations

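Several genes had a level that rested on 1 library. NARS2, the mitochondrial asparaginyl-tRNA synthetase, was at 77.5, 1603 and 97.5 CPM with DMSO, 101, 71.3 and 131 CPM with HFG, 179, 104 and 1538 CPM with halofuginol and 749.9, 94.8 and 88.3 CPM with NCP26. DNMBP was at 10.6, 173 and 16.4 CPM with DMSO and 31, 21.2 and 223 CPM with halofuginol, and SH2D4B at 2.96, 59.2 and 4.65 CPM and 6.40, 4.99 and 91.2 CPM. DMSO replicate 2 and halofuginol replicate 3 were the high libraries in all 3 genes. Against halofuginol the log2 difference of HFG was -2.58, -2.72 and -3.18 for NARS2, DNMBP and SH2D4B, and -0.48, -0.95 and -0.67 without halofuginol replicate 3. Of these, SH2D4B lost its call (edgeR adjusted p = 0.0231 and 0.247). Against NCP26 the log2 difference of HFG was -1.61, -1.44 and -2.16 for NARS2, DNMBP and SH2D4B. Without NCP26 replicate 1 it was 0.14, 0.43 and -0.004, and no call was made in either fit.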
